A study of Bos taurus with 8 samples.

Results

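The angiopoietin and TIE genes were measured in the steroid-making cells of the bovine corpus luteum (CL), the large luteal cells (LLC) and the small (SLC). The 7 genes were the angiopoietin ligands ANGPT1, ANGPT2 and ANGPT4, the receptors TEK (also called TIE2) and TIE1, and the angiopoietin-like genes ANGPTL2 and ANGPTL4. They were chosen by name, from transcript clusters whose platform annotation holds that gene symbol and no other, and each of the 7 had 1 such cluster among 18087 symbols in all.

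LLC (4 arrays) and SLC (4 arrays) were primary cells from mature mid-cycle CL of lactating Holstein cows, untreated after isolation, with 1 Affymetrix Bovine Gene 1.0 ST array for each sample. All cows had been synchronised with the prostaglandin analog cloprostenol, and the sources used here give no age. The CL were digested with collagenase, luteal cells were enriched on a Percoll gradient, and LLC and SLC were sorted by FACS after staining with a Hoechst dye, without any stated antibody against vascular cells. The labels call the samples of a cell type biological replicates 1 to 4, without saying whether they came from separate cows, so p-values measure the spread between these samples.

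Angiopoietins act mainly on blood and lymphatic vessels. ANGPT1, largely made by cells around vessels, activates TEK on endothelial cells and keeps vessels stable, while ANGPT2, made mostly by endothelial cells, competes for the same receptor and loosens vessels during growth or regression. TIE1 is a co-receptor that binds no angiopoietin strongly by itself. The angiopoietin-like proteins share the protein architecture but do not bind TEK. The CL is among the most densely vascularised tissues and forms and loses its capillaries in every cycle, which is why this system has been studied there.

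Values were log2 signals made with RMA, a method that corrects background, normalizes across arrays and summarises probes, and a difference of 1 is a 2-fold change. The RNA of a sorted sample was measured as a whole, so fewer cells of a type and less RNA per cell cannot be told apart. Differences were taken as LLC minus SLC with limma over 24415 clusters, and a gene was called at a Benjamini-Hochberg adjusted p under 0.05. Of 10 luteal markers, 4 were called higher in LLC and 1 lower, where 9.64% of all clusters were called higher and 10.2% lower. PTGFR and OXT were higher in LLC (differences 3.92 and 3.68) and INSL3 in SLC (-2.61), while CYP11A1 was at 11.38 ± 0.09 in LLC and 10.93 ± 0.06 in SLC (SD, n = 4 each). Arrays correlated at r of 0.978 to 0.986 within LLC, 0.989 to 0.991 within SLC and 0.949 to 0.977 between the cell types. LLC replicate 3 had the lowest mean endothelial marker signal of all arrays, so the main results that rest on it are also given without it. The 718 olfactory receptor clusters, taken as background, reached a 95th percentile of 2.34 in LLC and 2.26 in SLC. The mean of every one of the 7 genes lay above this limit in both cell types. Levels of different genes come from different probes and were not ranked against each other.

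Most of the 7 genes were lower in LLC than in SLC. Of the 7 genes, 5 were called lower in LLC, namely ANGPT4, TEK, TIE1, ANGPTL2 and ANGPTL4, where 10.2% of all clusters were called in that direction. ANGPT1 and ANGPT2 were not called. The count was 3 without SLC replicate 2 or 4, with signals held at the background limit, and without moderation of the variances. In each of these settings TEK and TIE1 were lost, which left ANGPT4 as the only angiopoietin or TIE gene called. Calls also fell over the whole array, from 4834 clusters to 3775 without SLC replicate 2 and 3506 without SLC replicate 4. None was called higher in LLC by limma (0 of 7, also 0 at an unadjusted p under 0.05), where 9.64% of all clusters were. The fold was above 2 in 4 of the 5 (all but ANGPTL4), against 3.07% of all clusters called lower in LLC at that fold. That count was 2 without LLC replicate 1, LLC replicate 3 or SLC replicate 4, and 1 without SLC replicate 2. In the same 5 genes all 4 LLC arrays lay below all 4 SLC arrays, as they did in 11.3% of all clusters. The median difference over the 7 genes was -1.13, beside 0.02 over all clusters.

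**Figure D1:**
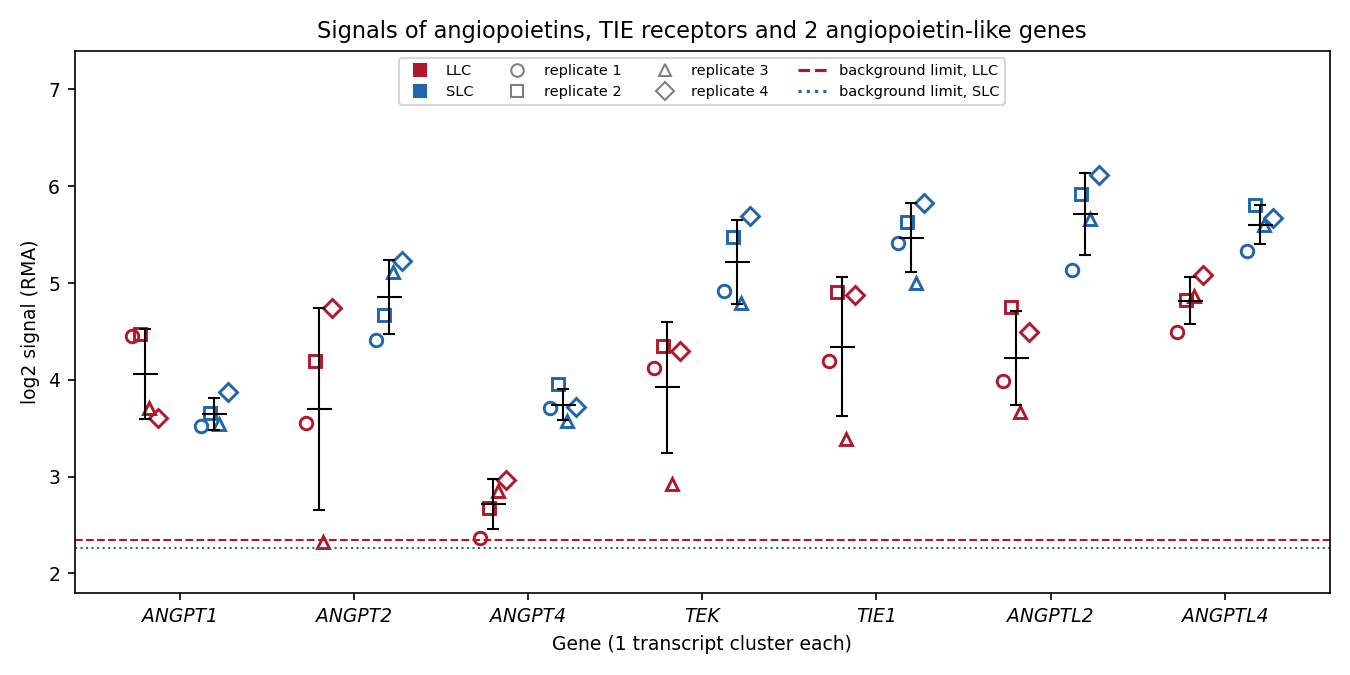
Log2 signal (vertical axis) of each gene (horizontal axis) on the 4 LLC arrays (red, left) and 4 SLC arrays (blue, right), with a marker shape for each replicate number, mean and SD as black bars, and the background limit of each cell type as a line. LLC and SLC arrays do not overlap in ANGPT4, TEK, TIE1, ANGPTL2 and ANGPTL4, and overlap in ANGPT1 and ANGPT2.

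TEK, the receptor tyrosine kinase that angiopoietins bind, had signals of 4.12, 4.35, 2.92 and 4.30 in LLC replicates 1 to 4, against 4.92, 5.48, 4.79 and 5.69 in SLC replicates 1 to 4. Every LLC array was below every SLC array, and LLC replicate 3 stood well below the other LLC arrays. TEK averaged 3.92 ± 0.68 in LLC and 5.22 ± 0.43 in SLC (SD, n = 4 each), a difference of -1.30 (SE 0.32, limma adjusted p = 0.0186) or 2.46-fold. Without LLC replicate 3 the difference was -0.96 (adjusted p = 0.0178), and the adjusted p was 0.0544 without SLC replicate 2 and 0.0584 without SLC replicate 4. The adjusted p was 0.0808 with signals held at the background limit, which altered no TEK signal, and 0.0912 without moderation.

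TIE1, the co-receptor that pairs with TEK, gave 4.19, 4.91, 3.39 and 4.88 in the LLC arrays, against 5.41, 5.63, 5.0 and 5.83 in the SLC arrays. The groups again did not overlap, though LLC replicates 2 and 4 came close to the lowest SLC array. The means were 4.34 ± 0.72 in LLC and 5.47 ± 0.36 in SLC, a difference of -1.13 (SE 0.32, limma adjusted p = 0.0339) or 2.18-fold. This call was the least firm of the 5. The adjusted p was 0.0835 without LLC replicate 1, and 0.0703, 0.0856 and 0.0976 without SLC replicates 1, 2 and 4, while without LLC replicate 3 the difference was -0.81 (adjusted p = 0.0473). The adjusted p was 0.118 with signals held at the background limit, which altered no TIE1 signal, and 0.128 without moderation.

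Of the 3 ligands, only ANGPT4 was called. ANGPT1, the activating ligand, had signals of 4.45, 4.47, 3.71 and 3.61 in LLC, against 3.52, 3.66, 3.54 and 3.87 in SLC. LLC replicates 1 and 2 lay above all SLC arrays, and LLC replicates 3 and 4 lay within the SLC range. ANGPT1 averaged 4.06 ± 0.46 in LLC and 3.65 ± 0.16 in SLC, and the difference of 0.41 was not called (95% interval -0.05 to 0.88, limma adjusted p = 0.218). A rise of up to 0.88 lay within this interval.

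ANGPT2, the context-dependent antagonist, had the widest spread of the 7 genes in LLC, at 3.55, 4.20, 2.32 and 4.74, against 4.41, 4.67, 5.11 and 5.23 in SLC. LLC replicate 4 lay within the SLC range, while LLC replicate 3 was just below the background limit. The means were 3.70 ± 1.04 in LLC and 4.86 ± 0.38 in SLC, and the difference of -1.15 was not called (95% interval -2.13 to -0.17, limma adjusted p = 0.0996). Which LLC array was kept decided much of this value. It was -0.69 (adjusted p = 0.153) without LLC replicate 3 and -1.50 without LLC replicate 4, where it was called (adjusted p = 0.0239). Calls rose over the whole array in that last fit, to 5537 clusters from 4834.

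ANGPT4, the ligand least studied of the 3 and known to activate human TEK, was called with the smallest p of the 7 genes. Its signals were 2.37, 2.68, 2.85 and 2.97 in LLC, against 3.71, 3.96, 3.58 and 3.72 in SLC. The highest LLC array was 2.97 and the lowest SLC array 3.58, and the spread within each cell type was small. ANGPT4 averaged 2.72 ± 0.26 in LLC and 3.74 ± 0.16 in SLC, a difference of -1.03 (SE 0.14, limma adjusted p = 0.00120) or 2.03-fold. Its LLC signals were close to the background limit of 2.34, so this fold is approximate. The call held in all 8 fits that left out 1 array, with differences from -1.11 to -0.91.

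Because ANGPT1 and ANGPT2 compete for TEK, their log2 difference was also compared within each array. ANGPT2 minus ANGPT1 was -0.90, -0.27, -1.39 and 1.13 in LLC, against 0.89, 1.01, 1.57 and 1.36 in SLC. LLC replicates 1 to 3 lay below all SLC arrays and LLC replicate 4 among them. Between the cell types this quantity differed by -1.57 (LLC -0.36 ± 1.09, SLC 1.21 ± 0.31, SD, n = 4 each), which did not pass a two-sided exact permutation test (p = 0.0857, where the smallest p the 70 arrangements allow is 0.0286). A limma fit of the same difference among all clusters, whose test was added after the data had been seen, did pass (SE 0.45, limma adjusted p = 0.0345), so the call depends on the test. Without LLC replicate 4 it differed by -2.06 (exact permutation p = 0.0286, the smallest that its 35 arrangements allow). No other fit that left out 1 array passed (exact permutation p from 0.0857 to 0.114). Without LLC replicate 3 the quantity differed by -1.22 (exact permutation p = 0.0857). The probes of the 2 genes differ, so only the change between cell types can be read, not which ligand was more abundant.

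The 2 angiopoietin-like genes were both lower in LLC. ANGPTL2, a secreted protein linked to inflammation that signals through integrins, had the largest difference of the 7 genes. Its signals were 3.99, 4.75, 3.67 and 4.49 in LLC, against 5.14, 5.92, 5.66 and 6.12 in SLC. No array overlapped between the groups, and LLC replicates 1 and 3 were the lowest. ANGPTL2 averaged 4.23 ± 0.49 in LLC and 5.71 ± 0.42 in SLC, a difference of -1.49 (SE 0.26, limma adjusted p = 0.00378) or 2.80-fold. Without LLC replicate 3 the difference was -1.30 (limma adjusted p = 0.00943).

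ANGPTL4, an inhibitor of lipoprotein lipase that fasting, hypoxia and fatty acids induce, gave 4.49, 4.83, 4.87 and 5.08 in LLC, against 5.33, 5.81, 5.60 and 5.67 in SLC. Both groups were narrow and did not overlap. ANGPTL4 averaged 4.82 ± 0.24 in LLC and 5.60 ± 0.20 in SLC, a difference of -0.79 (SE 0.15, limma adjusted p = 0.00510) or 1.72-fold, below the 2-fold limit of the study's filter. For both genes the call held whichever array was left out.

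**Figure D2:**
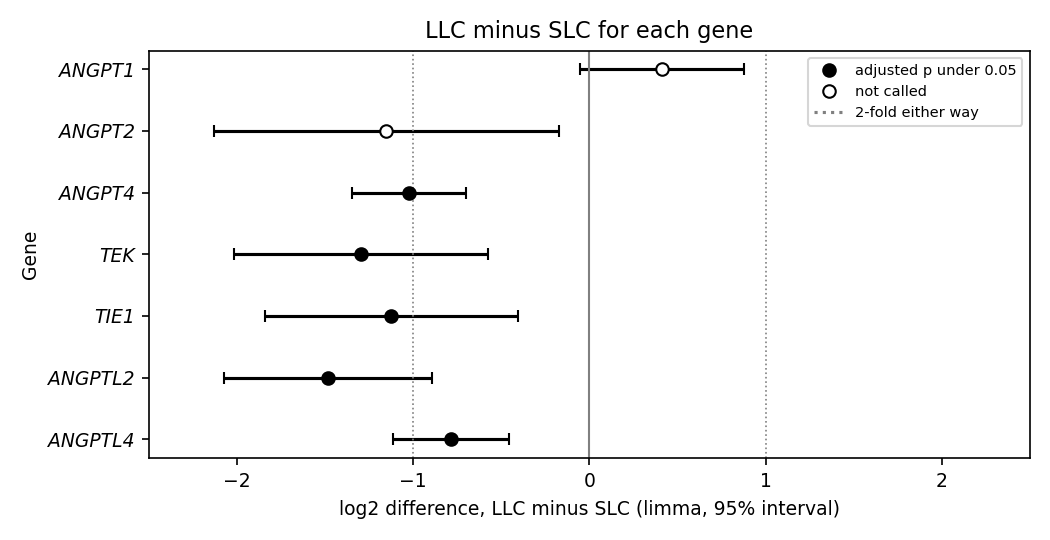
Log2 difference LLC minus SLC (horizontal axis) of each gene (vertical axis), with the 95% interval from limma. Filled points were called at an adjusted p under 0.05, open points were not, and dotted lines mark a 2-fold difference either way. The intervals of ANGPT1 (-0.05 to 0.88) and ANGPT2 (-2.13 to -0.17) are those of the 2 genes not called.

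In the RefSeq annotation of ARS-UCD2.0, 3 of the 7 genes overlap another gene that the array measured, and the values of these neighbours were read as well. ANGPT2 lies inside MCPH1, a gene of chromosome condensation, which was at 4.43 in LLC and 4.42 in SLC, a difference of 0.02 (adjusted p = 0.963). ANGPTL2 lies inside RALGPS1, an exchange factor for Ral GTPases, which was higher in LLC by 1.38 (adjusted p = 0.000513) where ANGPTL2 was lower. TEK overlaps IFT74, a gene of ciliary transport, which was higher in LLC by 0.76 (adjusted p = 0.0155) where TEK was lower. None of the 3 neighbours thus differed in the direction of its partner past the threshold. Whether any probe could read RNA of the other gene was not tested.

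TEK and TIE1 shared their array-to-array variation. In both genes the LLC arrays ran, from high to low, replicates 2, 4, 1 and 3, and the SLC arrays replicates 4, 2, 1 and 3. The mean of 20 endothelial markers, from which TEK and TIE1 were left out, had the same order in both cell types. This order was not particular to that list: the VEGF list had the same order in SLC, and the pericyte, fibroblast, lipase and integrin lists and ANGPTL2 had the same order in LLC. Relative to the SLC mean, TEK lay at -1.10, -0.87, -2.30 and -0.92 in LLC replicates 1 to 4, TIE1 at -1.28, -0.56, -2.08 and -0.59, and the endothelial mean at -0.89, -0.73, -1.85 and -0.80. In the SLC arrays the endothelial mean ran from -0.41 to 0.37. LLC replicate 3 was thus the lowest array for TEK, TIE1, ANGPT2, ANGPTL2 and the endothelial mean, and also for the pericyte (-1.54), fibroblast (-2.29), macrophage (-2.47) and lymphatic (-1.98) means. ANGPT4 and ANGPTL4 ran otherwise, with replicates 4, 3, 2 and 1 from high to low in LLC.

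**Figure D3:**
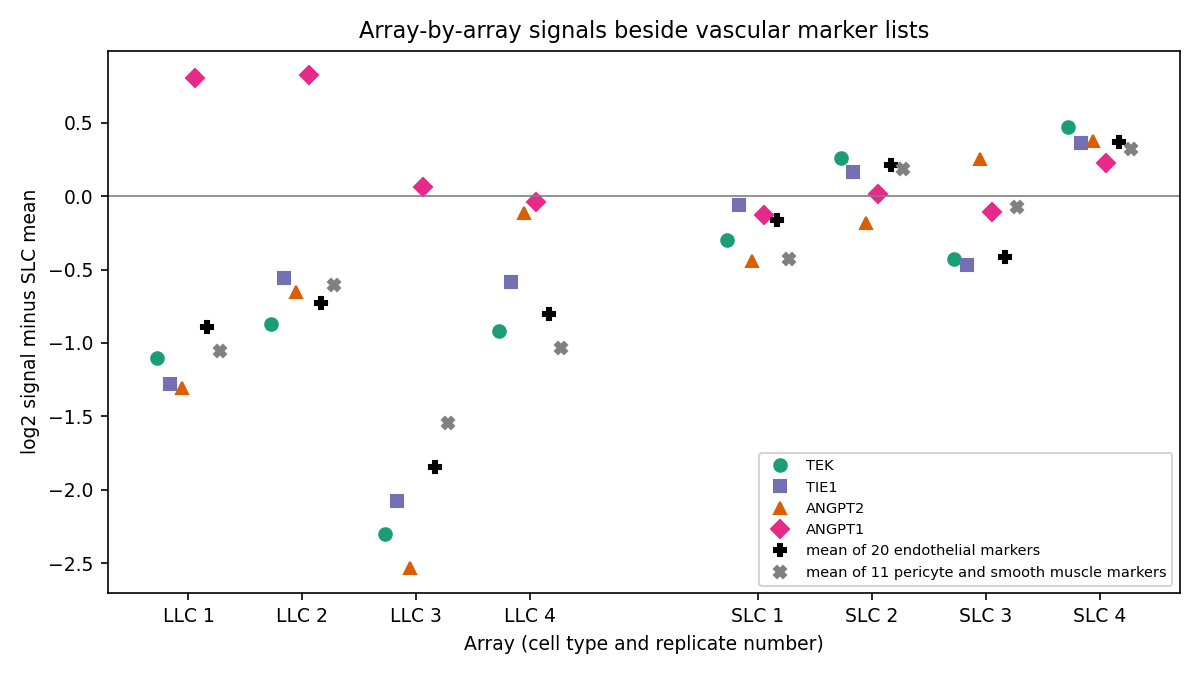
Log2 signal minus the SLC mean (vertical axis) on each LLC and SLC array (horizontal axis) for TEK, TIE1, ANGPT2, ANGPT1 and the means of 20 endothelial and of 11 pericyte and smooth muscle markers. On LLC replicate 3, TEK (-2.30), TIE1 (-2.08), ANGPT2 (-2.54) and the endothelial mean (-1.85) are at their lowest, while ANGPT1 is at 0.06.

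Of the 20 endothelial markers, 12 were called lower in LLC and 0 higher by limma (18 and 0 at an unadjusted p under 0.05), with a median of -1.10, beside -1.30 for TEK and -1.13 for TIE1. Over all clusters 10.2% were called lower. CLDN5, a tight junction gene of endothelium, was 2.71-fold lower, the clotting factor gene VWF 2.34-fold, ESAM, an adhesion molecule of endothelial junctions, 2.33-fold and RASIP1, which vessels need to open a lumen, 1.93-fold. None of the 20 was below the background limit in both cell types. The count was 6 without SLC replicate 2 and 7 without SLC replicate 4, and the median was -0.81 without LLC replicate 3. The part of these cells in the differences of TEK and TIE1 was not tested.

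Of 11 pericyte and smooth muscle markers 4 were called lower in LLC, 0 higher and 7 in neither direction (6 lower and 0 higher at an unadjusted p under 0.05). Over all clusters 10.2% were called lower. The median of the 11 was -0.84, and -0.63 without LLC replicate 3. The 4 called were DES (4.69-fold), CNN1 (4.09-fold) and TAGLN (4.01-fold), genes of the contractile cytoskeleton, and the growth factor receptor gene PDGFRB (3.28-fold). The differences of the 7 not called were -1.095 (RGS5), -0.835 (MYH11), -0.56 (NOTCH3), -0.51 (CSPG4), -0.45 (KCNJ8), -0.335 (ABCC9) and 0.10 (MCAM). The mean of the 11, relative to SLC, ranged from -1.54 to -0.61 in LLC and from -0.43 to 0.32 in SLC. ANGPT1, which such cells are known to make, lay between -0.04 and 0.82 in LLC on the same scale. Of 10 fibroblast markers 9 were called lower in LLC (median -1.96), with COL1A1 4.62-fold and DCN 3.23-fold lower, and of 9 macrophage markers 9 were (median -2.16), with CD14 4.97-fold lower. Without LLC replicate 3 the 2 medians were -1.69 and -2.01. The fibroblast count was 7 without LLC replicate 1 or SLC replicate 2 or 4, and 8 without LLC replicate 3 or SLC replicate 1 or 3. Means of the fibroblast list ranged from -2.29 to -1.06 in LLC and from -0.31 to 0.33 in SLC, and those of the macrophage list from -2.47 to -1.95 in LLC and from -0.20 to 0.20 in SLC. The part of these cells in the values of the 7 genes was not tested. Platelet and erythroid markers were near background, with 6 of 7 below the limit in both cell types and 0 called by limma (0 at an unadjusted p under 0.05).

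Lymphatic vessels also carry TEK. None of 5 lymphatic markers was called by limma (0 lower and 0 higher, 4 and 0 at an unadjusted p under 0.05), with a median of -1.20, and of -1.05 without LLC replicate 3. Their mean lay at 0.10 in LLC replicate 4, at -1.98 to -1.36 in the other LLC arrays, and at -0.75 to 0.57 in SLC. The chemokine gene CCL21, for example, was at 6.15, 5.46, 3.84 and 8.12 in LLC, against 7.25, 9.39, 8.83 and 7.66 in SLC. The markers did not all share this pattern. LYVE1 was lowest in LLC replicate 1 (6.05, with LLC replicate 3 at 7.45), and PDPN had a positive difference (0.265, limma adjusted p = 0.266). Without LLC replicate 4, the array with the highest ANGPT2 signal in LLC, 4 of the 5 were called lower. In that fit 5537 clusters were called in all, against 4834 with every array kept.

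Of 18 measured genes of TIE receptor signalling, downstream of the receptors or controlling them, 3 were called higher in LLC and 2 lower, with a median of 0. Over all clusters 9.64% were called higher and 10.2% lower, so these counts are near the background. PIK3R1 and PIK3CB, subunits of the PI3-kinase through which TEK signals, were higher in LLC by 0.56 and 0.85, and the adaptor gene NCK1 by 0.40. Lower in LLC were the adaptor gene SHC1 (-0.56) and the kinase gene AKT1 (-0.55). The count of 3 called higher was 1 without LLC replicate 2, and 2 without LLC replicate 1 or 3 or any of the SLC replicates. The count of 2 called lower was 1 without LLC replicate 1 or 2 or SLC replicate 2, 3 or 4, and 3 without LLC replicate 4.

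The endothelial phosphatase gene PTPRB, which holds TEK in check, was at 5.76, 5.74, 4.40 and 5.59 in LLC, against 5.94, 6.43, 5.58 and 6.64 in SLC. LLC replicate 3 was again the lowest and the groups overlapped, and the difference of -0.78 was not called (adjusted p = 0.135). FOXO1, a transcription factor that TEK signalling silences and that induces ANGPT2, differed by -0.43 (adjusted p = 0.0540), and NOS3, the endothelial nitric oxide synthase, by -0.37 (adjusted p = 0.156). Of 5 integrin genes 0 were called by limma in either direction (1 higher in LLC at an unadjusted p under 0.05, called without LLC replicate 4). Among them were ITGAV (0.42, adjusted p = 0.122), ITGB3 (-0.42, adjusted p = 0.430), and ITGB1 (-0.08, adjusted p = 0.724) and ITGA5 (-0.25, adjusted p = 0.171), the last 2 of which pair as a receptor used by ANGPTL2.

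Of 4 other angiopoietin-like genes measured, 3 were called lower in LLC and 0 higher (3 and 0 at an unadjusted p under 0.05). Over all clusters 10.2% were called lower. The count of 3 was 1 without SLC replicate 4, and 2 without LLC replicate 1 or 2 or SLC replicate 1 or 2. ANGPTL6 was at 2.99 ± 0.21 in LLC and 3.48 ± 0.21 in SLC, a difference of -0.49. ANGPTL1 (1.66 in LLC, 2.28 in SLC) lay below background in LLC and ANGPTL5 (0.85 in LLC, 2.07 in SLC) in both cell types, so their differences are approximate or cannot be read.

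Genes around ANGPTL4 were compared because it acts on lipases. LPL, the lipoprotein lipase gene, was at 9.05, 9.48, 8.68 and 7.68 in LLC, against 8.53, 8.48, 8.0 and 8.84 in SLC. The groups overlapped widely and the difference of 0.26 was not called (95% interval -0.49 to 1.01, adjusted p = 0.681). Of 5 lipases and partners 3 were called lower in LLC and 0 higher (3 and 0 at an unadjusted p under 0.05). They were GPIHBP1, which anchors LPL on capillaries (2.23-fold), the heparan sulfate carrier gene SDC1 (2.20-fold) and the endothelial lipase gene LIPG (2.07-fold). In LIPG, LLC replicate 4 (5.13) lay above SLC replicate 1 (4.91). Over all clusters 10.2% were called lower. The count of 3 was 2 without LLC replicate 1, 2 or 3 or SLC replicate 2, 3 or 4.

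ANGPTL4 is a target of PPAR receptors and of hypoxia. Of 10 PPAR receptors and targets 2 were called lower in LLC and 0 higher (5 and 0 at an unadjusted p under 0.05), the fatty acid carrier gene CD36 (2.67-fold) and CPT1A, of fatty acid entry into mitochondria (1.42-fold). Over all clusters 10.2% were called lower, and the count of 2 was 1 without LLC replicate 1 or 3 or SLC replicate 2, 3 or 4. PLIN2, which coats lipid droplets, differed by -0.07 (adjusted p = 0.761). Of 14 hypoxia factors and targets 4 were called higher in LLC and 2 lower, where 9.64% of all clusters were called higher and 10.2% lower. The count of 4 was 3 without LLC replicate 1, 2 or 3 or SLC replicate 1 or 3. The factor genes HIF1A (0.73) and EPAS1 (0.49), the kinase gene PDK1 (0.78) and the vasodilator gene ADM (1.39) were higher, and P4HA1 (-0.57) and NDRG1 (-0.93) were lower, as was ANGPTL4.

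VEGF, the other main endothelial growth factor system, had genes called in both directions, 2 of 10 higher in LLC and 3 lower. Over all clusters 9.64% were called higher and 10.2% lower. The count of 3 was 2 without LLC replicate 1, 2 or 3 or SLC replicate 2 or 3. VEGFA was higher in LLC by 2.24 and VEGFC by 1.89, while the differences of the co-receptor gene NRP2 (-1.86) and the VEGFC receptor gene FLT4 (-1.56) were negative and called. VEGFD was called lower as well, with both cell types below background. The endothelial receptors KDR (-1.11, adjusted p = 0.104) and FLT1 (-0.89, adjusted p = 0.145) had negative differences that were not called. KDR was at 7.19, 7.43, 5.42 and 7.43 in LLC, against 7.80, 8.33, 7.38 and 8.41 in SLC, with its lowest value in LLC replicate 3 like TEK and TIE1.

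**Figure D4:**
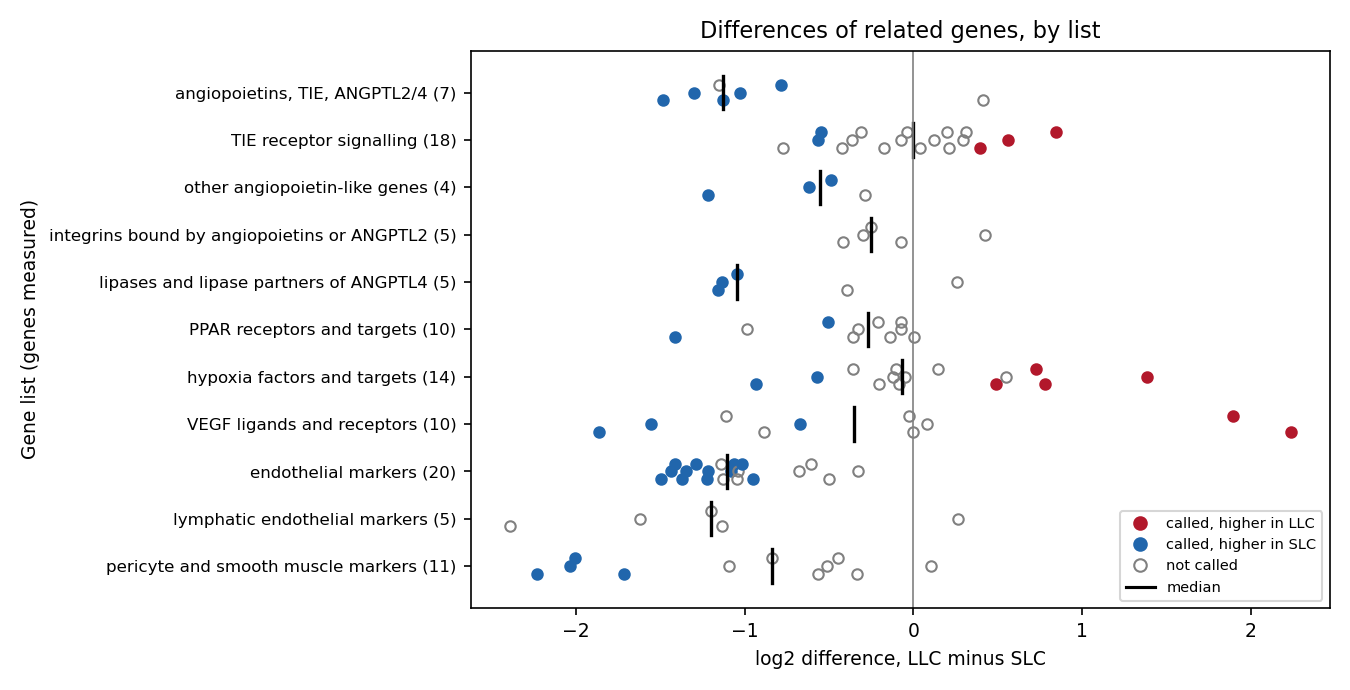
Log2 difference LLC minus SLC (horizontal axis) of each gene, by list (vertical axis, number measured in brackets), with called genes filled (red higher in LLC, blue higher in SLC), other genes open and the list median as a bar. Of the 7 angiopoietin, TIE and angiopoietin-like genes 5 are called on the SLC side, as are 12 of 20 endothelial markers, while TIE receptor signalling has a median of 0.

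The genes of most like pattern were sought among the 11984 symbols above the 40th percentile of the mean signal, by the mean absolute difference over the 8 arrays between centred log2 values (0 is an identical pattern). This is a description of 8 arrays and carries no test. TEK was closest to ARHGAP29, AHNAK and ETS1 (0.10, 0.10 and 0.11), and TIE1 to PODXL, ETS2 and TMEM88 (0.08, 0.09 and 0.09). TIE1 was the 63rd closest symbol to TEK and TEK the 46th closest to TIE1, at 0.19. ANGPT2 had no close match, its nearest being RGS16 at 0.24, then CCN4 and ACKR3, and TIE1 was its 35th closest at 0.31.

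ANGPT4 and ANGPTL4 differed from each other by 0.13 on this measure, where ANGPTL4 was the 32nd closest to ANGPT4 and ANGPT4 the 55th closest to ANGPTL4. ANGPT4 was closest to RGL2, RPL29 and KANK2 (0.08 to 0.09), and ANGPTL4 to PYCR3, NONO and STK25 (0.09 each). The neighbours of ANGPTL2 were LMNA, WFDC1 and GRID1 (0.13 to 0.15). ANGPT1 was closest to GPM6B (0.06), LSM8 (0.09) and SLC25A33 (0.10) and lay 0.63 or more from each of the other 6 genes. GPM6B, like ANGPT1, was higher in LLC replicates 1 and 2 (6.97 and 7.01) than in LLC replicates 3 and 4 (6.41 and 6.22), against 6.11 to 6.37 in SLC.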

How the data were processed

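RNA of 4 LLC and 4 SLC samples was hybridised to 1 array each. The authors deposited log2 signals, computed from CEL files by RMA within Transcriptome Analysis Console (build and RMA version not given in the sources used here). These were used without further normalization. Of 24415 clusters, 18550 had 1 symbol, and 17996 of these matched a RefSeq gene number. A symbol found on several clusters was read from the cluster with the highest mean signal. LLC and SLC were compared with lmFit and eBayes of limma 3.58.1 (R 4.3.3), checked on simulated data first. The number of arrays limits the precision. The genes, lists and tests were chosen with earlier results of these data known. Up to 4 called genes of each list by moderated t (2 by difference where none was called) and 3 genes of like pattern for each of the 7, above the 40th percentile of the mean, were selected by rule. Some of those selected from the fibroblast, macrophage, lymphatic, platelet and erythroid, and luteal lists are not named in the text. Other genes named for their role, as neighbours or to complete a short count were picked with their values already seen. Alternatives were other normalizations, filters, variance models and FDR families, a replicate block and leaving out each array. No sequence of these genes was used here.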

Additional observations from a re-analysis of the deposited data

Results flagged for a closer look

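In TEK, LLC replicate 3 (2.92) stood apart from the other LLC arrays (4.12 to 4.35), by a gap of 0.839 of the range of the 4 arrays. It was the only such case among the 14 groups of the 7 genes. Of 188 groups of 4 arrays over the 94 genes considered, 15 had an array this far from the rest, where chance gives about 1 in 20 for independent groups. These genes are no such set: 8 of the 15 cases are in genes chosen for a pattern like that of 1 of the 7 or named with values seen, and endothelial genes vary together. LLC replicate 3 was the low array in 8 of the 15: besides TEK, in the endothelial genes PECAM1 (4.75, others 6.42 to 6.75), CDH5 (5.86, others 7.37 to 7.65), KDR (5.42, others 7.19 to 7.43), PTPRB (4.40, others 5.59 to 5.76) and ESAM (3.57, others 4.33 to 4.35), and in ARHGAP29 (4.25) and AHNAK (4.93), both named as the closest patterns to TEK. LLC replicate 4 stood apart in SHC1 (6.53, high), VEGFC (6.83, low), CD163 (2.60, low) and PTGFR (10.89, low), LLC replicate 1 in MSR1 (2.47, high), SLC replicate 4 in GPM6B (6.37, high) and SLC replicate 3 in KANK2 (5.23, high).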

How the results depend on the processing

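Under 12 other settings, 95 of 103 values kept their direction and side of the threshold. Only quantile normalization, subtraction of the array median and array weights altered the differences of the 7 genes, and none changed sign there. Elsewhere these differences stayed as they were, so their direction could not change and only their SE, p or threshold could. With signals held at the background limit over all arrays (2.32), no signal of TEK or TIE1 was altered. Their differences stayed at -1.30 and -1.13, but their SE rose from 0.32 to 0.39. Neither was then called (limma adjusted p = 0.0808 for TEK and 0.118 for TIE1), and 3 genes were lower in LLC. Without moderation the same 2 were lost (-1.30 and -1.13, adjusted p = 0.0912 and 0.128), again leaving 3. In both settings the 2 calls were lost through the variance estimate and the adjustment, with the signals of TEK and TIE1 unchanged. ANGPTL4 (-0.79) is lost where a fold above 2 is required. ANGPT2 minus ANGPT1 passed in a limma fit added after seeing the data (-1.57, adjusted p = 0.0345) and not in the exact test.

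Leaving out each array in turn gave 0.28 to 0.56 for ANGPT1, -1.50 to -0.69 for ANGPT2, -1.11 to -0.91 for ANGPT4, -1.44 to -0.96 for TEK, -1.31 to -0.81 for TIE1, -1.68 to -1.30 for ANGPTL2 and -0.88 to -0.68 for ANGPTL4. From 3 (without SLC replicate 2 or 4) to 6 (without LLC replicate 4) genes were called lower in LLC and 0 higher. Calls over all clusters, 4834 with every array kept, ranged from 3506 (without SLC replicate 4) to 5537 (without LLC replicate 4). ANGPT2 minus ANGPT1 ranged from -2.06 to -1.22 and passed the exact test only without LLC replicate 4.

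The methods do not pair samples by number, so same-numbered LLC and SLC arrays were not taken as pairs. Such arrays deviated together with r of -0.13 to 0.17 over clusters. Of 4 LLC arrays, 1 correlated best with the SLC array of its own number. These correlations cannot decide whether same-numbered samples came from the same cow. With the replicate number as a block, 5 genes were called lower and 0 higher, TEK had an adjusted p of 0.00385 and TIE1 of 0.00438, 4336 rather than 4834 clusters were called, and ANGPT2 minus ANGPT1 stayed at -1.57 (two-sided exact sign-flip permutation p = 0.125, the smallest that 4 pairs allow).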
